A study of Homo sapiens with 4 samples.

Results

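Transcripts of 45 genes that encode the cytosolic translation initiation, elongation and release factors were followed in a human leukemia line after knockdown of ELOVL5, an elongase of polyunsaturated fatty acids. The genes were listed by family and sorted by complex, out of 64252 gene identifiers in the count table. Each of the 45 symbols matched 1 Ensembl identifier, and all 45 passed the low-count filter. The cells were J.gamma1, a clone of Jurkat, a line from T-cell acute lymphoblastic leukemia (T-ALL), that lacks phospholipase C gamma 1, so every library carries that loss. RNA was sequenced from cells transfected with a short hairpin RNA (shRNA) against ELOVL5 (shELOVL5, 2 libraries) and from cells transfected with a control shRNA (shNC, 2 libraries). A single hairpin against ELOVL5 is named, but neither its sequence, nor the time of harvest, nor whether replicates were separate cultures is stated in the labels. The columns of the count table carry the tag D4, which the labels do not explain. The p-values therefore measure only the spread between these libraries, which may be technical.

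Total counts were 17338719 and 16311139 in shELOVL5 and 17246603 and 16254002 in shNC, and levels are given as TMM-scaled CPM, the counts scaled to a common library total by edgeR's trimmed mean of M-values. The targeted gene ELOVL5 had 71.8 and 70.0 CPM in shELOVL5, against 342 and 353 CPM in shNC. All 9 T lineage markers (such as CD3E and LCK) were above 1 CPM, and their summed level was 1609 and 1564 CPM in shELOVL5 and 1599 and 1608 CPM in shNC. Single T lineage markers passed in both directions, with CD3E (log2 fold change 0.32) and CD3G (0.25) higher and TRAC (-0.41), CD247 (-0.28), CD3D (-0.26) and LCK (-0.17) lower in shELOVL5. The 5 B lineage markers summed to 29.8 and 26.9 CPM in shELOVL5 and 47.7 and 40.7 CPM in shNC, nearly all of it CD79A, and MS4A1 and PAX5 were below the filter. No myeloid (5) or erythroid (4) marker reached 1 CPM, and of 7 epithelial or fibroblast markers COL1A1 and PDGFRB did on average. The part of the B lineage signal in the results was not tested.

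Protein synthesis starts when eIF2, loaded with GTP and initiator tRNA, joins the small ribosomal subunit together with eIF1, eIF1A, eIF3 and eIF5. The eIF4 factors bind the mRNA cap, unwind the leader and, through poly(A)-binding protein, connect it to the tail. eEF1A then delivers each aminoacyl-tRNA, eEF2 moves the ribosome along, and eRF1 with eRF3 releases the chain at the stop codon. eIF2B recharges eIF2 with GTP and is the target of the integrated stress response, whose effector transcription factor is ATF4. ATF4 had 209 and 205 CPM in shELOVL5, against 503 and 506 CPM in shNC. Growing leukemia cells make protein at a high rate and express most of these factors strongly.

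EEF2 had the most negative fold change of the 45, at 1.90-fold lower in shELOVL5, and EEF1A1, EEF1B2 and EEF1G were lower with it. Of the 45 factors 15 were lower and 5 higher in shELOVL5 at an adjusted p under 0.05, and 25 did not pass (edgeR quasi-likelihood test, Benjamini-Hochberg adjustment over 17461 tested genes). Among all tested genes 20.4% passed, 11.2% as lower and 9.22% as higher. With scaling by total counts only, the balance over all tested genes turned, with 1674 lower and 1933 higher, against 1952 lower and 1610 higher with TMM, and 14 factors were lower and 7 higher. The list was chosen by gene family with the log2 fold changes and adjusted p-values of this same comparison known, so the calls describe the genes, and nothing is read from the shares. Its median log2 fold change (shELOVL5 over shNC) was -0.06, against 0.01 over all tested genes. Group ranges were separate for 32 of the 45 factors, and for 60.1% of tested genes. In a test against a change of 1.2-fold, 10 factors passed as lower and 0 as higher, where 6.01% of all genes passed in either direction. Without shELOVL5 replicate 1, 14 factors passed as lower and 3 as higher.

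Transcripts of the 45 genes made up 1.98% and 1.95% of all counts in shELOVL5, against 2.36% and 2.35% in shNC. Without EEF1A1 the share was 1.45% and 1.43% in shELOVL5 and 1.63% in both shNC libraries. The difference lay mainly in the 7 elongation genes, which summed to 9225 and 9026 CPM in shELOVL5 and 12873 and 12835 CPM in shNC. The 13 eIF3 genes summed to 3056 and 2990 CPM in shELOVL5 and 3256 and 3150 CPM in shNC. The 8 eIF4 genes summed to 3807 and 3828 CPM in shELOVL5 and 3946 and 4007 CPM in shNC. A CPM value is a share of the RNA, and in bulk libraries fewer cells of a type and less RNA per cell cannot be told apart.

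**Figure D1:**
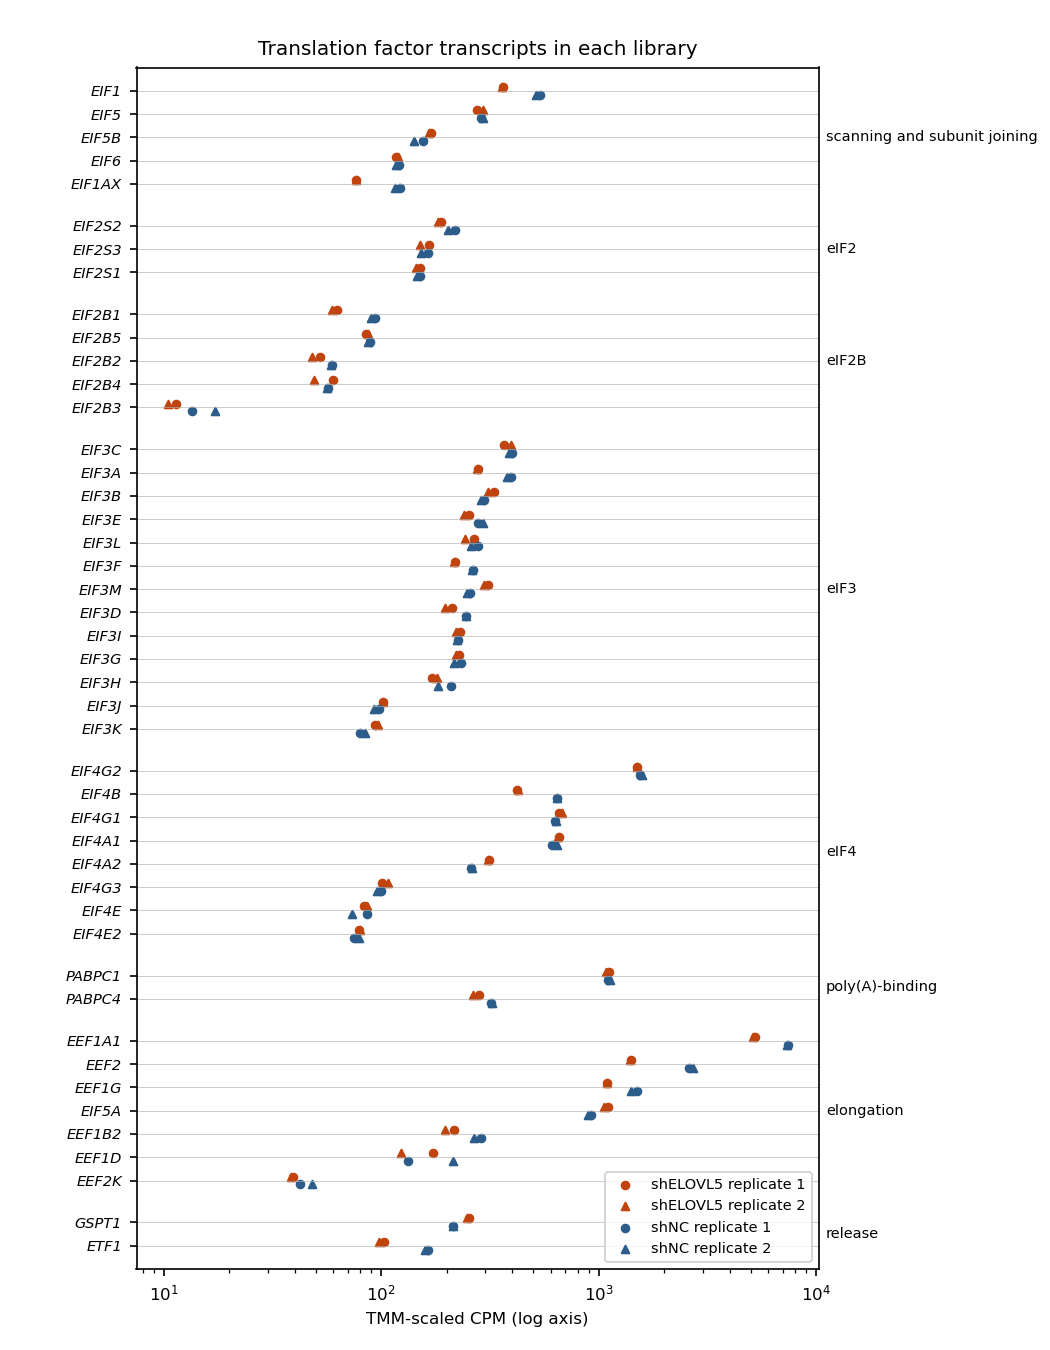
Level of each of the 45 translation factor genes in each library, in TMM-scaled CPM on a log axis, sorted by complex and within a complex by shNC level. Points are single libraries, with shELOVL5 drawn just above shNC. EEF1A1 sits at 5212 and 5135 CPM in shELOVL5, against 7402 and 7319 CPM in shNC, and EEF2 at 1398 and 1388 CPM in shELOVL5, against 2590 and 2695 CPM in shNC.

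Many mRNAs of the translation machinery begin with a cytosine followed by an unbroken run of pyrimidines, the terminal oligopyrimidine (TOP) start, through which the kinase mTORC1 and the RNA-binding protein LARP1 control their translation. The annotated first bases of the factors were therefore read from the RefSeq promoter table (GRCh38.p14), on the strand of the gene only, and a start was counted when its first base was C and the next 4 or more bases were each C or T. The table held an entry for 36 of the 45 genes, and none for EEF1D, EIF2S2, EIF3A, EIF3E, EIF3G, EIF3H, EIF3L, PABPC1 and PABPC4. Such a start was found for 10 of the 36, at 1 or more of their annotated starts. The same start was found at 4.07% of all 35116 starts in the table. The 10 windows below run from 10 bases before the first transcribed base to 20 bases from it, so that the first transcribed base is base 11. Capitals mark the pyrimidine run.
EEF2, chr19:3985444-3985473, minus strand: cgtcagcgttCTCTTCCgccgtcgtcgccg
EEF1A1, chr6:73521013-73521042, minus strand: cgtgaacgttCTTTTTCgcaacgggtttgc
EEF1B2, chr2:206159885-206159914, plus strand: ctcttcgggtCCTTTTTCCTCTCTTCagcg
EIF4B, chr12:53006446-53006475, plus strand: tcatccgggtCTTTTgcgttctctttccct
EIF3D, chr22:36529147-36529176, minus strand: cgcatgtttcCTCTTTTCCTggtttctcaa
EIF3F, chr11:7987327-7987356, plus strand: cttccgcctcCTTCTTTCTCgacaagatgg
EIF2S3, chrX:24054946-24054975, plus strand: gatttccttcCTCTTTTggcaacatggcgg
EIF3M, chr11:32583821-32583850, plus strand: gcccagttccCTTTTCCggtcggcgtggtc
EIF3K, chr19:38619178-38619207, plus strand: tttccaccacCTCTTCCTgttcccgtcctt
EIF4A2, chr3:186783567-186783596, plus strand: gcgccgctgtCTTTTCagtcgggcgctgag

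By the annotated first base, 5 lower factors in the promoter table have no such start: ETF1, EIF1AX, EIF2B1, EEF1G and EIF1. A window follows for each of them but EIF1. ETF1 has another annotated start, with its window at chr5:138541692-138541721, which also lacks the run and is not printed. The windows of EEF1G and EIF1 hold pyrimidines directly after the annotated first base. Whether the mRNAs of EEF1G and EIF1 start at those bases in these cells was not tested.
ETF1, chr5:138543217-138543246, minus strand: aggaagtgatgtcacaggccccatgtgagc
EIF1AX, chrX:20141819-20141848, minus strand: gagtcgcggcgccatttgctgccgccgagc
EIF2B1, chr12:123633667-123633696, minus strand: gtacggaagtgcgccggaagtggggtgcgg
EEF1G, chr11:62573872-62573901, minus strand: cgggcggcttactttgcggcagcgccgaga

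Of the 10 factors with the pyrimidine start 6 passed as lower (EEF2, EEF1A1, EEF1B2, EIF4B, EIF3D and EIF3F), 3 passed as higher (EIF3M, EIF3K and EIF4A2) and EIF2S3 did not pass. Their median log2 fold change was -0.27. Of the 26 factors whose annotated starts lacked it 5 passed as lower and 2 as higher, with a median of -0.02. Over all tested genes in the promoter table, 21.5% of 813 genes with the start and 12.6% of 10338 genes without it passed as lower. The shares that passed as higher were 9.96% with the start and 10.7% without it. With the listed factors and ribosomal protein genes set aside, 19.2% of 756 genes with the start and 12.5% of 10296 genes without it passed as lower. Among the ribosomal protein genes the order was the other way. With the start 24 of 47 were lower (51.1%, median -0.20), and without it 10 of 16 (62.5%, median -0.23). The start is read at the annotated first base only, so a gene annotated some bases from its true start counts as without it. Whether the 16 lack the start in these cells was not tested. The factors with the start also had the higher level, with a median of 259.6 CPM, against 139 CPM for those without it. Over the genes other than factors and ribosomal proteins the median was 41.2 CPM with the start and 33.9 CPM without it, and the part of the level in these differences was not tested. LARP1, named here for its role at these starts, had 292 and 291 CPM in shELOVL5 and 291 and 289 CPM in shNC.

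Among the elongation factors 4 of 7 fell and 1 rose, where 11.2% of all tested genes fell and 9.22% rose. EEF2 (ENSG00000167658, GRCh38 chromosome 19, 3976056 to 3985469), the GTPase that translocates the ribosome, had 1398 and 1388 CPM in shELOVL5, against 2590 and 2695 CPM in shNC. The libraries of a group differed by far less than the groups did. Its log2 fold change was -0.92 (SE 0.0318, edgeR adjusted p = 4.37e-08). EEF1A1 (ENSG00000156508, chromosome 6, 73515750 to 73523797), which carries aminoacyl-tRNA to the ribosome and was the most abundant factor per exon length in both groups, had 5212 and 5135 CPM in shELOVL5, against 7402 and 7319 CPM in shNC. It fell by 0.51 on the log2 scale (SE 0.026, edgeR adjusted p = 7.95e-07). EEF1A1 has many processed pseudogenes, whose counts came to between 4.00% and 4.29% of its own in each library, and with those added the log2 fold change was -0.51.

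EEF1G and EEF1B2 encode the gamma and beta subunits of eEF1B, which exchanges GDP for GTP on eEF1A. EEF1G (ENSG00000254772, chromosome 11, 62559601 to 62574086) had 1087 and 1088 CPM in shELOVL5 and 1503 and 1402 CPM in shNC, with no overlap between the groups (log2 fold change -0.42, SE 0.038, edgeR adjusted p = 3.79e-05). A gene model that overlaps EEF1G on the same strand, AP002990.1, took 777 and 379 counts in shELOVL5 and 521 and 1826 counts in shNC, and with these added the log2 fold change of EEF1G was -0.44. EEF1B2 had 216 and 196 CPM in shELOVL5 and 287 and 268 CPM in shNC, a log2 fold change of -0.43 that passed. EEF1D, the delta subunit of the same complex, had 173 and 124 CPM in shELOVL5 and 133 and 213 CPM in shNC, so that replicates of a group lay further apart than the group means (148 and 173 CPM). AC067930.6, a gene model on the opposite strand of EEF1D, had 566 and 1191 counts in shELOVL5 and 1305 and 846 counts in shNC, and was low where EEF1D was high in both groups. The labels do not say whether the counting used strand.

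The elongation factor that went up was EIF5A (ENSG00000132507, chromosome 17, 7306999 to 7312463), the hypusine-bearing protein that helps the ribosome through stalling sequences such as proline runs. It had 1099 and 1057 CPM in shELOVL5, against 916 and 890 CPM in shNC, and no library of one group reached into the other. With its near-identical copies added (such as EIF5AL1) its log2 fold change was 0.26, as without them. EEF2K, the kinase that phosphorylates and inactivates eEF2, had 39.2 and 38.6 CPM in shELOVL5 and 42.2 and 48.2 CPM in shNC and did not pass (log2 fold change -0.21, edgeR adjusted p = 0.164).

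**Figure D2:**
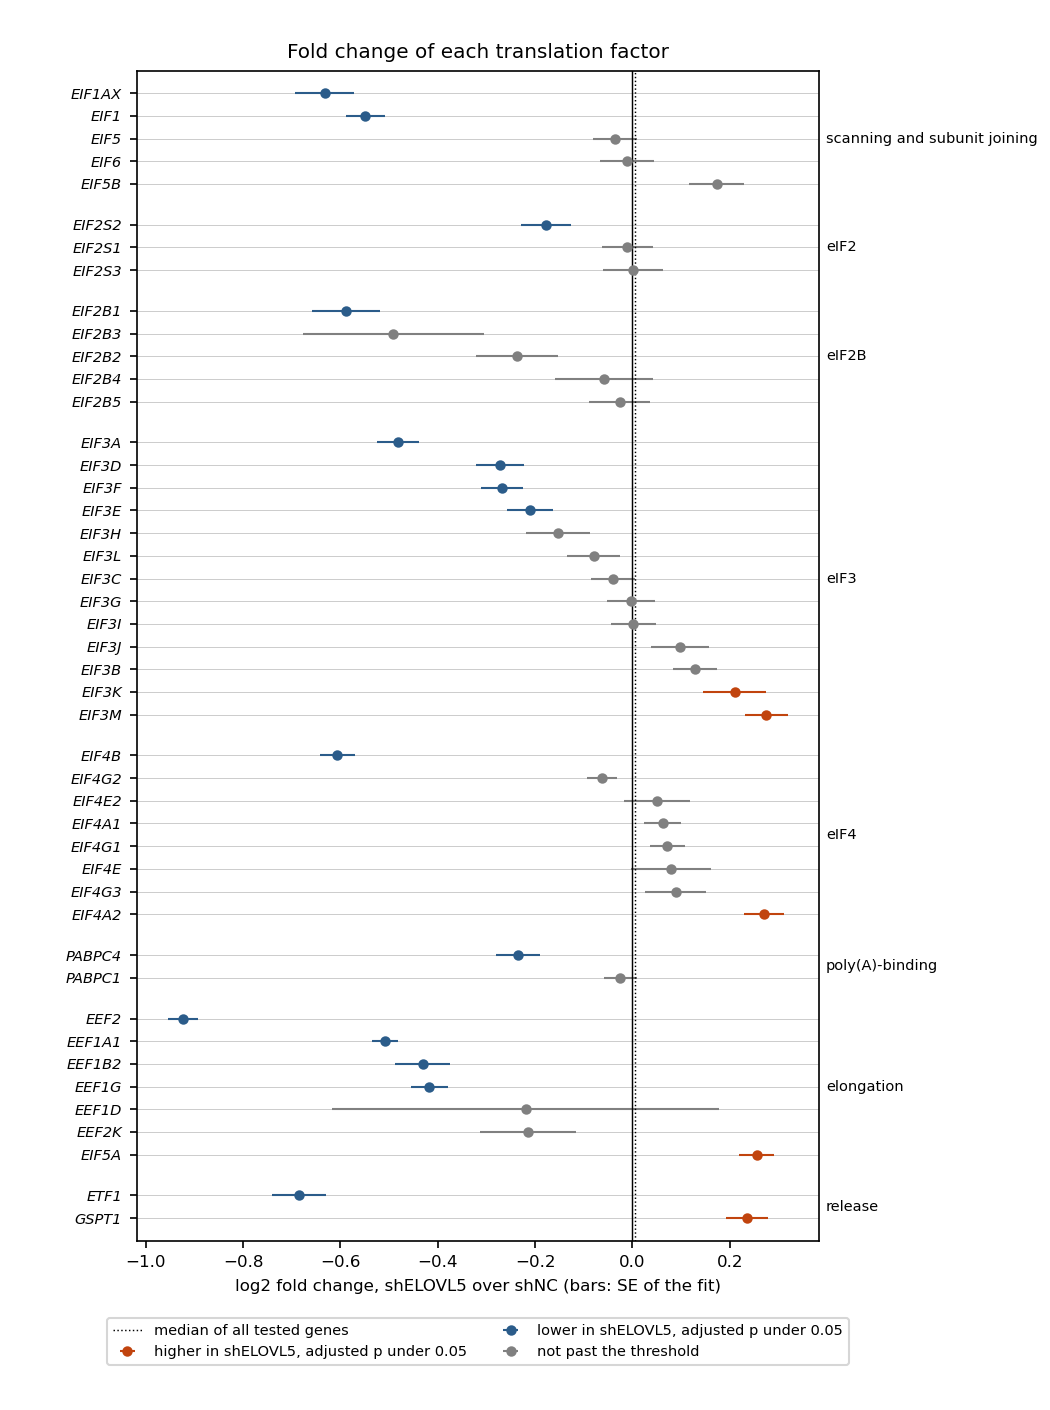
Log2 fold change (shELOVL5 over shNC) of each of the 45 factors by complex, with bars for the standard error of the edgeR fit and colour for the call at an adjusted p under 0.05. EEF2 lies furthest to the left at -0.92, and the 5 factors called higher lie between 0.21 and 0.28.

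The release factors moved in opposite directions. ETF1 (ENSG00000120705, chromosome 5, 138506095 to 138543300), which encodes eRF1, the protein that reads all stop codons, had 103 and 97.9 CPM in shELOVL5, against 164 and 159 CPM in shNC. Its log2 fold change of -0.69 (SE 0.0556, edgeR adjusted p = 1.78e-05) was, after that of EEF2, the most negative of the 45. GSPT1, which encodes its GTPase partner eRF3a, had 254 and 248 CPM in shELOVL5 and 213 and 213 CPM in shNC, a log2 fold change of 0.24 (SE 0.0435, edgeR adjusted p = 0.00357). GSPT1 did not pass without shELOVL5 replicate 1 (edgeR adjusted p = 0.0564). The ratio of GSPT1 to ETF1, in CPM per exon length, was 1.42 and 1.45 in shELOVL5 and 0.746 and 0.770 in shNC, a 1.89-fold difference in which gene length cancels.

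The scanning factors EIF1 and EIF1AX were lower, while EIF5, EIF5B and EIF6 were not called. EIF1 (ENSG00000173812, chromosome 17, 41688885 to 41692668), which keeps the scanning ribosome from starting at poor codons, had 361 and 357 CPM in shELOVL5, against 537 and 514 CPM in shNC (log2 fold change -0.55, SE 0.0396, edgeR adjusted p = 7.99e-06). EIF1AX (ENSG00000173674, chromosome X, 20124518 to 20141844), its partner in scanning, had 76.4 and 76.8 CPM in shELOVL5 and 121 and 116 CPM in shNC (log2 fold change -0.63, SE 0.0603, edgeR adjusted p = 5.21e-05). For both genes the groups were fully apart. EIF5B, the GTPase that joins the large subunit, had 169 and 165 CPM in shELOVL5 and 155 and 142 CPM in shNC. It missed the threshold (log2 fold change 0.17, edgeR adjusted p = 0.0538), and passed without shNC replicate 1 (edgeR adjusted p = 0.0182), with total counts only (0.0240) and with a filter of 1 CPM in 2 libraries (0.0448). EIF5, which triggers GTP hydrolysis on eIF2, and EIF6, which keeps the subunits apart, had log2 fold changes of -0.04 and -0.01, and their groups overlapped.

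Of the trimeric eIF2 and its exchange factor eIF2B, 1 subunit each fell, where 11.2% of all tested genes fell. EIF2B1 (ENSG00000111361, chromosome 12, 123620406 to 123633766), the regulatory alpha subunit through which eIF2B senses phosphorylated eIF2, had 62.8 and 59.3 CPM in shELOVL5 and 93.5 and 90.0 CPM in shNC, with no overlap. Its log2 fold change was -0.59 (SE 0.0707, edgeR adjusted p = 0.000247). The other regulatory and catalytic subunits did not pass. EIF2B3 (gamma) had 11.4 and 10.4 CPM in shELOVL5 and 13.5 and 17.2 CPM in shNC, and its log2 fold change of -0.49 had the largest SE of this complex (0.186, edgeR adjusted p = 0.0917). EIF2B2 (beta) had 52.0 and 48.2 CPM in shELOVL5 and 59.3 and 58.9 CPM in shNC (log2 fold change -0.24, edgeR adjusted p = 0.0736). EIF2B4 (delta) and EIF2B5, the catalytic epsilon subunit, had log2 fold changes of -0.06 and -0.03, with overlapping groups.

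In eIF2 itself, EIF2S2 (beta) had 188 and 183 CPM in shELOVL5 and 218 and 202 CPM in shNC, a log2 fold change of -0.18 at an edgeR adjusted p of 0.033. That call was lost by DESeq2 (adjusted p = 0.0503), limma-voom (adjusted p = 0.0557) and edgeR with robust=FALSE (adjusted p = 0.0557), with total counts only (0.0739) and with no low-count filter (0.0896). It was also lost without shELOVL5 replicate 1 (edgeR adjusted p = 0.0953), shELOVL5 replicate 2 (0.188) or shNC replicate 1 (0.157). EIF2S1, the alpha subunit that stress kinases phosphorylate, had 150 and 144 CPM in shELOVL5 and 150 and 147 CPM in shNC. EIF2S3, the GTP-binding gamma subunit, had 166 and 151 CPM in shELOVL5 and 164 and 153 CPM in shNC. For both the groups overlapped, with log2 fold changes of -0.01 and 0.0020.

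The eIF3 scaffold holds the small subunit ready for mRNA. Of its 13 subunits 4 fell (30.8%), 2 rose (15.4%) and 7 did not pass, with a median log2 fold change of -0.04. Of all tested genes 11.2% fell and 9.22% rose. EIF3A (ENSG00000107581, chromosome 10, 119033670 to 119080823), a core scaffold subunit, had 278 and 275 CPM in shELOVL5, against 396 and 377 CPM in shNC (log2 fold change -0.48, SE 0.0425, edgeR adjusted p = 3.1e-05). It was the most changed eIF3 subunit and the only one to pass against a change of 1.2-fold. EIF3F, an octamer subunit, had 219 and 216 CPM in shELOVL5 and 263 and 260 CPM in shNC (log2 fold change -0.27, SE 0.0427, edgeR adjusted p = 0.00147). EIF3D, a peripheral subunit that can bind the cap of selected mRNAs, had 210 and 195 CPM in shELOVL5 and 245 and 245 CPM in shNC (log2 fold change -0.27, edgeR adjusted p = 0.00319). EIF3E, another octamer subunit, had 252 and 240 CPM in shELOVL5 and 278 and 292 CPM in shNC, with a log2 fold change of -0.21, a call that was lost without shELOVL5 replicate 2 (edgeR adjusted p = 0.102).

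The eIF3 subunits that rose also belong to the octamer. EIF3M had 310 and 297 CPM in shELOVL5 and 255 and 247 CPM in shNC (log2 fold change 0.28, SE 0.0443, edgeR adjusted p = 0.00156). EIF3K had 93.2 and 96.7 CPM in shELOVL5 and 80.2 and 84.0 CPM in shNC, a log2 fold change of 0.21 at an edgeR adjusted p of 0.0423. EIF3K did not pass by DESeq2 (adjusted p = 0.11), limma-voom (adjusted p = 0.0605), edgeR with robust=FALSE (adjusted p = 0.0560), with no low-count filter (0.0954) or without any 1 library (edgeR adjusted p between 0.0639 and 0.237). The groups were apart for both genes in every library. The module of EIF3B, EIF3G and EIF3I had log2 fold changes of 0.13, -0.0031 and 0.0023, none of which passed. EIF3B had an edgeR adjusted p of 0.0718, and of 0.0244 with total counts only, where it passed as higher. EIF3H, EIF3J and EIF3L, with log2 fold changes of -0.15, 0.10 and -0.08, did not pass, although EIF3H did without shNC replicate 2 (edgeR adjusted p = 0.0109). A model on the strand of EIF3L, AL022311.1, had 103 and 69 counts in shELOVL5 and 44 and 766 counts in shNC, and with it added EIF3L had a log2 fold change of -0.18 (edgeR adjusted p = 0.0593). EIF3C shares nearly all of its sequence with EIF3CL, which took 6023 and 4620 counts in shELOVL5 and 6003 and 5863 counts in shNC. EIF3C itself had 6435 and 6512 counts in shELOVL5 and 6769 and 6182 counts in shNC. The log2 fold change of EIF3C was -0.04 alone and -0.12 with EIF3CL added, and neither passed (edgeR adjusted p = 0.597 and 0.0557).

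**Figure D3:**
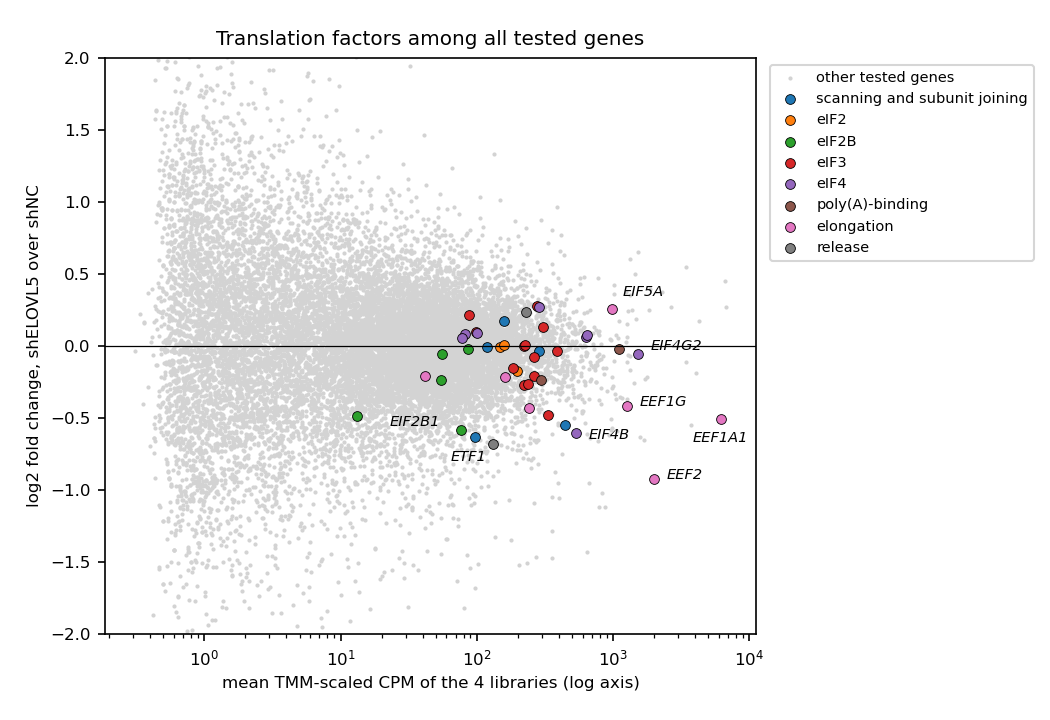
Log2 fold change (shELOVL5 over shNC) against mean level in TMM-scaled CPM (log axis) for all tested genes, with the 45 factors coloured by complex. The 149 tested genes beyond 2 in either direction are outside the plot. EEF1A1, EEF2 and EEF1G lie at the high end of the level axis with log2 fold changes of -0.51, -0.92 and -0.42.

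Among the cap-binding and helicase factors, EIF4B fell, EIF4A2 rose and the other 6 did not pass. That is 12.5% in each direction, near the 11.2% of all tested genes that fell and the 9.22% that rose. EIF4B (ENSG00000063046, chromosome 12, 53006158 to 53042209), which stimulates the helicase eIF4A, had 422 and 424 CPM in shELOVL5, against 645 and 643 CPM in shNC. Replicates differed by under 2 CPM, and the log2 fold change was -0.61 (SE 0.0357, edgeR adjusted p = 2.17e-06). EIF4H, a relative of eIF4B outside the 45 with a similar role, had 196 and 185 CPM in shELOVL5 and 539 and 520 CPM in shNC (log2 fold change -1.48). EIF4A2, a helicase paralog of EIF4A1, had 314 and 311 CPM in shELOVL5 and 258 and 260 CPM in shNC (log2 fold change 0.27, SE 0.0407, edgeR adjusted p = 0.00103). EIF4A1 had 656 and 652 CPM in shELOVL5 and 610 and 642 CPM in shNC, with a log2 fold change of 0.06 and no call. With the overlapping same-strand models SENP3-EIF4A1 and AC016876.2 added it was 0.04. Per exon length, the level of EIF4A2 was 0.415 and 0.413 of that of EIF4A1 in shELOVL5 and 0.366 and 0.351 in shNC.

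None of the eIF4G scaffolds passed. EIF4G1, which bridges eIF4E, eIF4A and poly(A)-binding protein, had 655 and 675 CPM in shELOVL5 and 632 and 634 CPM in shNC (log2 fold change 0.07, SE 0.0357, edgeR adjusted p = 0.194). EIF4G2, a shorter relative that lacks the eIF4E-binding part, had 1497 and 1493 CPM in shELOVL5 and 1541 and 1580 CPM in shNC (log2 fold change -0.06, edgeR adjusted p = 0.201). EIF4G3 had 100.3 and 107 CPM in shELOVL5 and 99.3 and 95.6 CPM in shNC, and its level per exon length was 0.132 and 0.136 of that of EIF4G1 in shELOVL5 and 0.135 and 0.130 in shNC. The cap-binding proteins EIF4E, with 83.3 and 85.5 CPM in shELOVL5 and 86.2 and 73.5 CPM in shNC, and EIF4E2, with 79.3 and 80.0 CPM in shELOVL5 and 74.8 and 79.0 CPM in shNC, did not pass (log2 fold changes 0.08 and 0.05).

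Of the poly(A)-binding proteins PABPC4 fell and PABPC1 did not pass. PABPC4 had 283 and 264 CPM in shELOVL5 and 320 and 324 CPM in shNC (log2 fold change -0.24, SE 0.0453, edgeR adjusted p = 0.00451), a call that was lost without shELOVL5 replicate 2 (edgeR adjusted p = 0.0587). PABPC1, the main cytosolic form, had 1112 and 1080 CPM in shELOVL5 and 1103 and 1127 CPM in shNC, and its groups overlapped. Per exon length the level of PABPC4 was 0.178 and 0.172 of that of PABPC1 in shELOVL5 and 0.204 and 0.201 in shNC.

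The order of levels changed at the top. Per kilobase of merged exons, EEF1A1 ranked first with 870 CPM per kilobase in shELOVL5 and 1237 in shNC. EEF2 ranked 4 of 45 in shELOVL5, at 346 CPM per kilobase, and 2 in shNC, at 656. EEF1G had 400.3 CPM per kilobase in shELOVL5 and 535 in shNC, and EIF5A had 383 in shELOVL5 and 321 in shNC. The lowest 3 in both groups were EIF4E, EEF2K and EIF2B3, of which EIF2B3 had 3.20 CPM per kilobase in shELOVL5 and 4.51 in shNC. Per length of the longest principal transcript EEF1A1 was also first, EEF2 ranked 5 in shELOVL5 and 3 in shNC, and the same 3 genes were lowest.

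Other genes of the pathway were read from a list of 46 further factors, regulators and modifying enzymes, of which 45 were tested and IMPACT was listed at 0 in every library. Of these 12 fell (26.7%) and 4 rose (8.89%), where 11.2% of all tested genes fell and 9.22% rose. Their median log2 fold change was 0.0044. With scaling by total counts only, 9 of the related genes fell and 5 rose. Without shELOVL5 replicate 1, 6 fell and 1 rose, and without replicate 2, 5 fell and 2 rose. Among 24 other cytosolic factors 7 fell and 0 rose. Besides EIF4H these included ABCE1, which recycles ribosomes, at 225 ± 5.75 CPM in shELOVL5 and 286 ± 5.14 CPM in shNC (SD, n = 2 each; log2 fold change -0.34). PAIP2, an inhibitor of poly(A)-binding protein, had a log2 fold change of -0.35 and DENR, a reinitiation factor, one of -0.30.

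Among 13 tested kinases, phosphatase subunits and binding proteins 4 rose and 5 fell, where 9.22% of all tested genes rose and 11.2% fell. The eIF4E-binding repressors moved apart: EIF4EBP2 rose to 333 and 333 CPM in shELOVL5, against 220 and 225 CPM in shNC (log2 fold change 0.58, SE 0.0414, edgeR adjusted p = 7.37e-06), and EIF4EBP1 fell to 19.4 and 15.9 CPM in shELOVL5, against 31.8 and 28.2 CPM in shNC (log2 fold change -0.76). Of the eIF4E kinases MKNK1 rose (log2 fold change 0.43, edgeR adjusted p = 0.00514) and MKNK2 fell (-0.20, edgeR adjusted p = 0.0272). Of the eIF2 kinases EIF2AK1, the heme-regulated one, fell (-0.24, edgeR adjusted p = 0.0062). EIF2AK2, which senses double-stranded RNA, rose (0.24, edgeR adjusted p = 0.0355). EIF2AK3 and EIF2AK4 did not pass (0.22 and 0.20). Of the 8 enzymes that modify eIF5A and eEF2 none passed at an adjusted p under 0.05, including DHPS and DOHH, which make hypusine. Over all tested genes 20.4% passed in either direction.

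Other gene families of protein synthesis are set beside the factors only as counts. Over all tested genes 11.2% passed as lower and 9.22% as higher. Of 79 cytosolic ribosomal protein genes 41 fell and 0 rose, with a median log2 fold change of -0.22, including RPL3 (-0.59) and RPS4X (-0.64), the genes with the smallest p. Of 20 cytosolic aminoacyl-tRNA synthetase genes 12 fell and 0 rose, with a median of -0.37, including AARS1 (-0.78) and YARS1 (-0.69). Of 12 mitochondrial translation factors 2 rose, MTIF3 (0.66) and GFM1 (0.29), and 0 fell, with a median of 0.04. The difference between these families and the 45 factors was not tested.

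**Figure D4:**
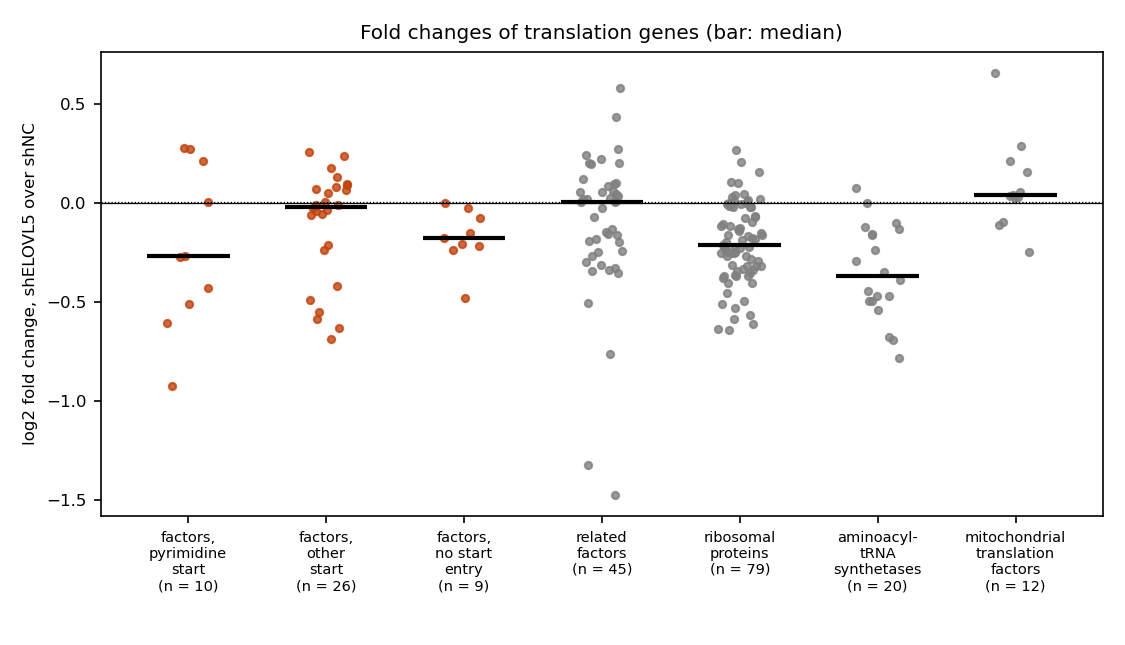
Log2 fold change (shELOVL5 over shNC) of single genes in the factors with a pyrimidine start, with another start and with no entry in the promoter table, and in 4 other families of translation genes, where black bars are medians and the dotted line is the median of all tested genes. Medians were -0.27 for the 10 factors with a pyrimidine start and -0.02 for the 26 whose annotated starts lacked it.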

How the data were processed

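Per the labels, total RNA of J.gamma1 cells was extracted with TRIzol and made into Illumina TruSeq libraries, 2 per group. The deposited table holds raw whole-number read counts per Ensembl gene. Per the submitters' processing notes HISAT2 2.2.0, StringTie and hg38 were used, but no annotation release, counting step or strand setting is stated there. Counts on overlapping genes and near-identical copies are therefore uncertain. Libraries were assigned by their titles. Coordinates and exon lengths came from GENCODE release 29 (GRCh38) and start sequences from RefSeq (GRCh38.p14).

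All genes were fitted with edgeR 4.0.16 in R 4.3.3 (filterByExpr with a minimum count of 10, TMM, glmQLFit with robust=TRUE, two-sided glmQLFTest, group as the only term). The threshold was a Benjamini-Hochberg adjusted p under 0.05 over 17461 genes. At these depths 3 counts correspond to 0.173 to 0.185 CPM, which covers counting error only. On simulated counts for shELOVL5 over shNC with 17339 tested genes, the fit recovered 24% of genes changed 1.25-fold, 58% at 1.5-fold and 84% at 2-fold, and made 47 false calls beside 200 changed genes, more than the threshold implies. Alternatives were RLE or total-count scaling, other low-count filters, DESeq2 1.42.0, limma-voom (limma 3.58.1), robust=FALSE, a replicate block, a test against a 1.2-fold change (glmTreat), adding near-identical copies, adding same-strand overlapping models (chosen after seeing the data) and leaving out each library. The factors, the lists and the tests were chosen with earlier results of these data known. All 45 factors could be named, with full statistics for up to 3 per complex with the smallest p, and up to 4 genes per other list. MKNK2, EIF2AK2, EIF2AK3, EIF2AK4 and the single T lineage markers were chosen after their values were seen.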

Additional observations from a re-analysis of the deposited data

How the results depend on the processing

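No factor that passed the threshold changed direction under any of the 15 alternatives. Under the 1.2-fold test 0 factors were higher and 10 lower, the related factors gave 1 higher and 2 lower, and all tested genes 408 higher and 641 lower. Related factors higher numbered 2 by DESeq2 and 2 with no low-count filter, where 899 of all genes were higher, and scaling by total counts moved the factors' median log2 fold change to -0.0228. With 1 library left out, 3 to 5 factors were higher and 12 to 16 lower, their median lay between -0.0786 and -0.0408, 1 to 4 related factors were higher and 5 to 11 lower, and 696 to 1347 of all genes were higher and 1176 to 1616 lower (696 and 1176 without shELOVL5 replicate 1, 795 and 1178 without replicate 2).

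Sign changes concerned only factors that did not pass. By total counts the log2 fold changes of EIF2B5 (0.0091), EIF2S1 (0.0253), EIF3G (0.0323), EIF5 (0.00036), EIF6 (0.0241) and PABPC1 (0.0109) turned positive. EIF2S3 turned to -0.0041 with no low-count filter and -0.0030 with copies added, EIF3I to -0.0038 with no filter, and EIF3G to 0.00037 with a filter of 1 CPM in 2 libraries. With 1 library left out the ranges were -0.52 to 0.15 for EEF1D, -0.22 to 0.0764 for EIF2B4, -0.0486 to 0.0185 for EIF2S1, -0.0786 to 0.0697 for EIF2S3, -0.0909 to 0.00027 for EIF3C, -0.0617 to 0.0476 for EIF3G, -0.0389 to 0.0335 for EIF3I, -0.0368 to 0.20 for EIF4E, -0.0813 to 0.00072 for EIF5 and -0.0391 to 0.0066 for EIF6. The cause was not tested.

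With the replicate number as a block 6 factors were higher and 15 lower, the addition being EIF5B (adjusted p = 0.0451). The deviations of same-numbered libraries had a correlation of -0.0061, so the numbers were not taken as pairs. Depth and 2 libraries per group limit the calls on small changes.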
